A study of Mus musculus with 3 samples.

Results

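The genes described here encode the subunits of the proteasome, its regulators and its assembly factors. They were taken as every entry whose symbol starts with Psm, 1 of the letters a to g and a number, which gave 50 of the 23282 entries in the deposited tables. The series gave mice the herbal medicine Asari Radix et Rhizoma (a wild ginger) or its vehicle, sterile water. The 3 libraries used here are the vehicle group. Their RNA came from whole marrow after red cell lysis, from male C57BL/6 mice of wild type genotype that were 6 weeks old, received water by oral gavage for 28 days and were harvested on day 29. Samples of the herb group were not analysed here, and no treatment comparison is made. The labels do not say whether each library came from a separate mouse. The p-values then measure only the spread between these samples, which may be technical.

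The proteasome is the barrel-shaped protease that degrades ubiquitin-tagged proteins. Its core particle stacks rings of alpha subunits (Psma genes) on rings of beta subunits (Psmb genes), and 3 of the beta subunits, encoded by Psmb5, Psmb6 and Psmb7, carry the constitutive catalytic sites. In haematopoietic cells and under interferon-gamma these can be replaced during assembly by Psmb8, Psmb9 and Psmb10, which makes the immunoproteasome, known for cutting peptides presented on MHC class I. The core is opened by a regulatory particle, with a base of ATPases (Psmc) and scaffold or ubiquitin-receptor subunits (some Psmd) and a lid that holds the deubiquitinase Psmd14, or by activator rings encoded by the Psme genes. Dedicated chaperones (Psmg genes, Psmd5, Psmd9 and Psmd10) assemble the parts.

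Of the 50 genes, 14 encode the constitutive core (Psma1 to Psma7 and Psmb1 to Psmb7), 3 the inducible catalytic subunits, 9 the base, 8 the lid, 4 the activators, 1 the inhibitor Psmf1, 7 assembly chaperones and 2 core subunits known from other organs (Psma8 and Psmb11). The other 2 were placed in no role group. Psme2b is a 1-exon copy of Psme2 that is annotated as protein-coding, and whether it yields a subunit was not tested. Psmc3ip matches by name only and encodes a meiotic recombination factor that is no proteasome subunit. At least 30 reads over the 3 libraries, the minimum for a test, were reached by 48 of the 50, and Psma8 and Psmb11 stayed below it. Replicates 1, 2 and 3 had 9168435, 8104828 and 9137125 reads assigned to genes. Levels are given as reads per 1000000 gene-assigned reads (CPM), and a count of 0 would allow up to 0.327, 0.370 and 0.328 CPM. Priming starts at the transcript's 3′ end, with roughly 1 fragment from each molecule, so CPM values of different genes were set side by side without division by length.

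The beta5 pair, Psmb8 and Psmb5, was the only 1 of the 3 catalytic pairs in which the inducible gene stood above the constitutive gene, so the start-site sequences of both are shown. They run from 250 bases before to 50 bases after the RefSeq start on GRCm38.p6, 5′ to 3′ on the gene's strand, at chr17:34197945-34198244 (plus strand) for Psmb8 and chr14:54617946-54618245 (minus strand) for Psmb5. Capitals mark matches to any of 6 motifs, searched on both strands: the core of the interferon-stimulated response element (GAAA, any 2 bases, GAAA), TTCNNNGAA (bound by STAT factors), TGACNNNGC (antioxidant response type, bound by Nfe2l1 and Nfe2l2), CCAAT (the CCAAT box, bound by NF-Y), GGGCGG (the GC box) and ACTTCCGG (bound by ETS factors).
Psmb8: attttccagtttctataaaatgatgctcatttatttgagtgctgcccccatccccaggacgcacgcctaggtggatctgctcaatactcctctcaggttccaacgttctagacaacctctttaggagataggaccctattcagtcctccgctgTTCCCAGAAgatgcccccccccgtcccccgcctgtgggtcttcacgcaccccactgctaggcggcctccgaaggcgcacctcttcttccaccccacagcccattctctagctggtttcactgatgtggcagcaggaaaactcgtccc
Psmb5: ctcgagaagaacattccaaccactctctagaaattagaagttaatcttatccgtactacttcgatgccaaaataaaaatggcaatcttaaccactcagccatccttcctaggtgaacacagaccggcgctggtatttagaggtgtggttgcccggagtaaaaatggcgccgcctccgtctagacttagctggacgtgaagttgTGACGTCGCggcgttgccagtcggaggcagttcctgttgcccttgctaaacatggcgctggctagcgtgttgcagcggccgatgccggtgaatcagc
The Psmb8 window held TTCNNNGAA and the Psmb5 window TGACNNNGC, and neither held the other 5 motifs. Of 27025 genes with a start-site window in the table, 9.55% held TTCNNNGAA and 14.0% TGACNNNGC. Psmb6 held TGACNNNGC and a GC box, Psmb9 held a CCAAT box and a GC box, and Psmb10 held none of the 6. Of the 42 members in the table, 3 held TTCNNNGAA, 6 TGACNNNGC, 5 the interferon-response core (Psme1 among them, against 3.99% of all genes) and 9 ACTTCCGG, against 4.31% of all genes. The Psmb8 window begins at 34197945, inside the GENCODE gene span of 34197721 to 34201454. The Psmb9 and Psme1 windows likewise lie wholly inside their GENCODE gene spans. Sequence upstream of those spans was not searched for these genes, so a motif missing from their windows may still occur there. A match is a description of the letters and not a bound site.

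Among the catalytic genes, the inducible beta5 gene was about 2 times as abundant as its constitutive partner, while the inducible beta1 and beta2 genes were below theirs. Psmb8, the inducible beta5 subunit with chymotrypsin-like activity (GRCm38 chromosome 17, 34197721 to 34201454), stood at 116 CPM in replicate 1, 98.6 in replicate 2 and 103 in replicate 3. Psmb5, its constitutive partner (chromosome 14, 54614119 to 54618022), had 56.4, 52.4 and 49.4 CPM. The groups of values did not overlap, and the log2 ratio of Psmb8 to Psmb5 was 1.005 ± 0.08 (SD, n = 3), a 2.01-fold difference. Psmb9, the inducible beta1 subunit, had 26.5, 28.7 and 24.0 CPM, all below Psmb6, the constitutive beta1 subunit, at 68.1, 62.7 and 64.0 CPM. Psmb6 thus stood 2.46-fold above Psmb9, with a log2 ratio of Psmb9 to Psmb6 of -1.30 ± 0.16 (SD, n = 3). Psmb10, the inducible beta2 subunit with trypsin-like activity, had 40.7, 38.99 and 35.7 CPM against 67.4, 79.1 and 77.8 CPM for Psmb7, its constitutive partner. That log2 ratio was -0.96 ± 0.21 (SD, n = 3), so Psmb7 was 1.94-fold higher. Each of the 3 ratios kept its sign in 3 of 3 libraries. A two-sided exact permutation test that flips signs gave p = 0.25 for each, and 0.25 after Benjamini-Hochberg adjustment over the 3 pairs, the smallest value that 3 libraries allow.

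Shares within a pair need no scaling between libraries. Psmb8 held 67.3%, 65.3% and 67.7% of the beta5 pair's reads in replicates 1, 2 and 3, and the exact 95% Clopper-Pearson intervals (64.9 to 69.6, 62.5 to 67.9 and 65.1 to 70.1%) overlapped. Psmb9 held 28.0%, 31.4% and 27.2% of the beta1 pair, again with overlapping intervals. Psmb10 held 37.6% (34.6 to 40.7%) of the beta2 pair in replicate 1 and 31.4% (28.6 to 34.4%) in replicate 3, intervals that did not overlap, with replicate 2 between them at 33.0%. Summed over the 3 sites, inducible genes held 48.8%, 46.1% and 46.0% of catalytic reads, a log2 ratio of -0.17 ± 0.09 (SD, n = 3). Psmb8 was 4.04 ± 0.527 times as high as Psmb9 (SD, n = 3), and the genes lie on chromosome 17 with 9956 bases between them. Tap1, which encodes part of the MHC class I peptide transporter, spans most of that gap (34187553 to 34197225) and overlaps the Psmb9 gene at its start. The order of the 6 genes was Psmb8, Psmb7, Psmb6, Psmb5, Psmb10 and Psmb9, and of the neighbours only Psmb7 with Psmb6 overlapped in their values over libraries. A limit lies in Psmb5, since 51.4% of the 50-base windows in its last 300 transcript bases also occur in the annotated processed pseudogene Gm3375, so reads of this gene may have been split or lost. No window of Psmb6, Psmb7, Psmb8, Psmb9 or Psmb10 was shared, while the Psmb7 end overlaps the antisense gene Nek6, and whether counting used strand is not stated.

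**Figure D1:**
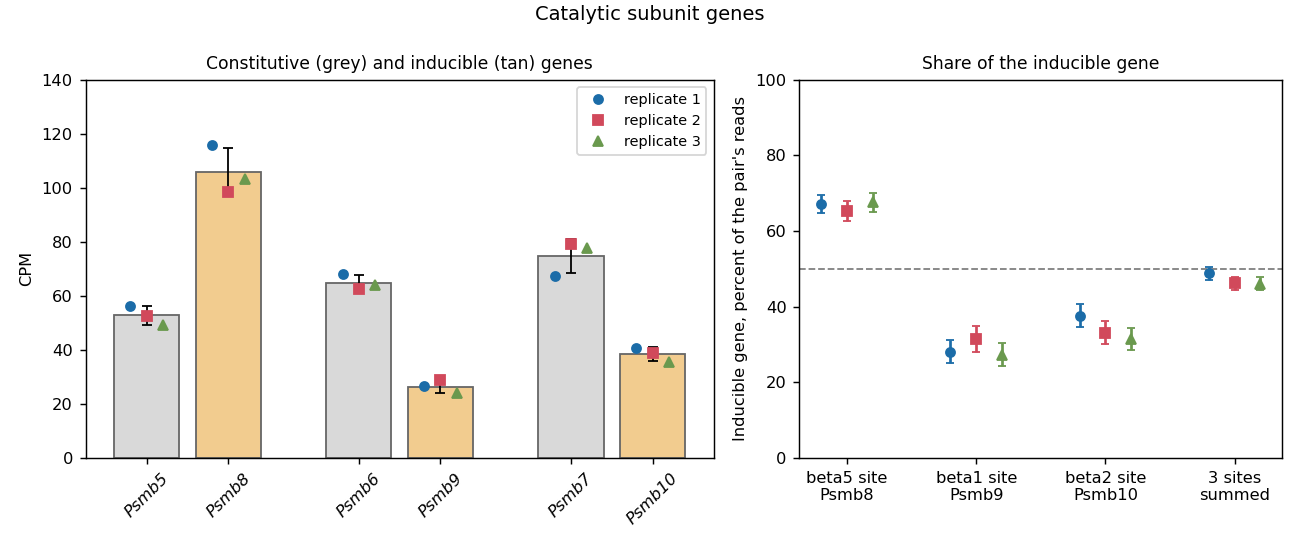
Left, levels of the constitutive (grey) and inducible (tan) catalytic genes in CPM; bars are means, error bars SD and points the 3 libraries. Right, the inducible gene's percent of its pair's reads per library with exact 95% intervals; Psmb8 lies between 65.3% and 67.7%, above the dashed line at 50%, and Psmb9 and Psmb10 lie below it.

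The alpha ring held the most abundant member. Psma7 had the highest level of all members, at 308, 267 and 253 CPM, rank 331 among 16040 entries with reads. The alpha subunits Psma2, Psma4 and Psma6 followed at 191 ± 18.9, 119 ± 6.98 and 99.1 ± 5.79 CPM (SD, n = 3). At the low end Psma5 had 14.9, 13.7 and 10.9 CPM, so Psma7 was 21.1 ± 1.87 times as high as Psma5 (SD, n = 3) although each alpha ring takes 1 copy of either. In the constitutive beta ring Psmb1, at 185, 175 and 165 CPM, was the highest and Psmb2, at 18.9, 13.2 and 16.2 CPM, the lowest. Both low genes stood below every other gene of the constitutive core in all 3 libraries. For Psma5, 57.8% of the windows at the transcript end were shared with the processed pseudogenes Gm12989 and Gm8394, whereas for Psmb2 none was shared. The part of such sharing in the low levels was not tested.

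The base and lid of the regulatory particle spanned a narrower range than the core. Among the ATPases, which unfold substrates, Psmc3 was the highest at 148, 130 and 129 CPM and Psmc5 the lowest at 28.9, 24.4 and 29.5 CPM. The Psmc3 transcript end overlaps the antisense gene Slc39a13. Psmd4, a ubiquitin receptor of the base, had 251, 231 and 278 CPM, about the level of Psma7, and the large scaffold subunits Psmd2 and Psmd1 had 104 ± 11.3 and 98.6 ± 20.4 CPM (SD, n = 3). In the lid the values ran from Psmd12 at 48.5, 47.9 and 40.6 CPM to Psmd13 at 153, 126 and 154 CPM, a 3.16-fold span of means, against 20.9-fold in the constitutive core. Psmd14, the deubiquitinase of the lid, had 61.4, 71.4 and 51.7 CPM, below Psmd7, the partner it pairs with, at 120, 128 and 142 CPM.

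Core, base, lid and activator genes had no stable order of levels. The median member had 67.7, 70.9 and 70.9 CPM in the constitutive core, 91.6, 89.2 and 84.6 CPM in the base, 83.3, 71.3 and 75.9 CPM in the lid and 85.0, 76.6 and 72.6 CPM among the activators. On the log2(CPM + 1) scale the core median minus the lid median was -0.13 ± 0.13, minus the base median -0.34 ± 0.09 and minus the activator median -0.15 ± 0.14 (SD, n = 3). With the mean CPM over members in place of the median, the core stood above the lid (0.12) and the activators (0.38) and was -0.10 against the base. Without the 11 members that share over 10% of their end windows with another gene, a choice made after seeing the data, all 3 differences turned, to 0.18, 0.35 and 0.32. By summed reads, the constitutive core held 36.1% ± 0.438 of all member reads, the base 24.8% ± 0.579, the lid 18.9% ± 0.356, the activators 7.95% ± 0.210 and the inducible subunits 4.57% ± 0.0995 (SD, n = 3).

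**Figure D2:**
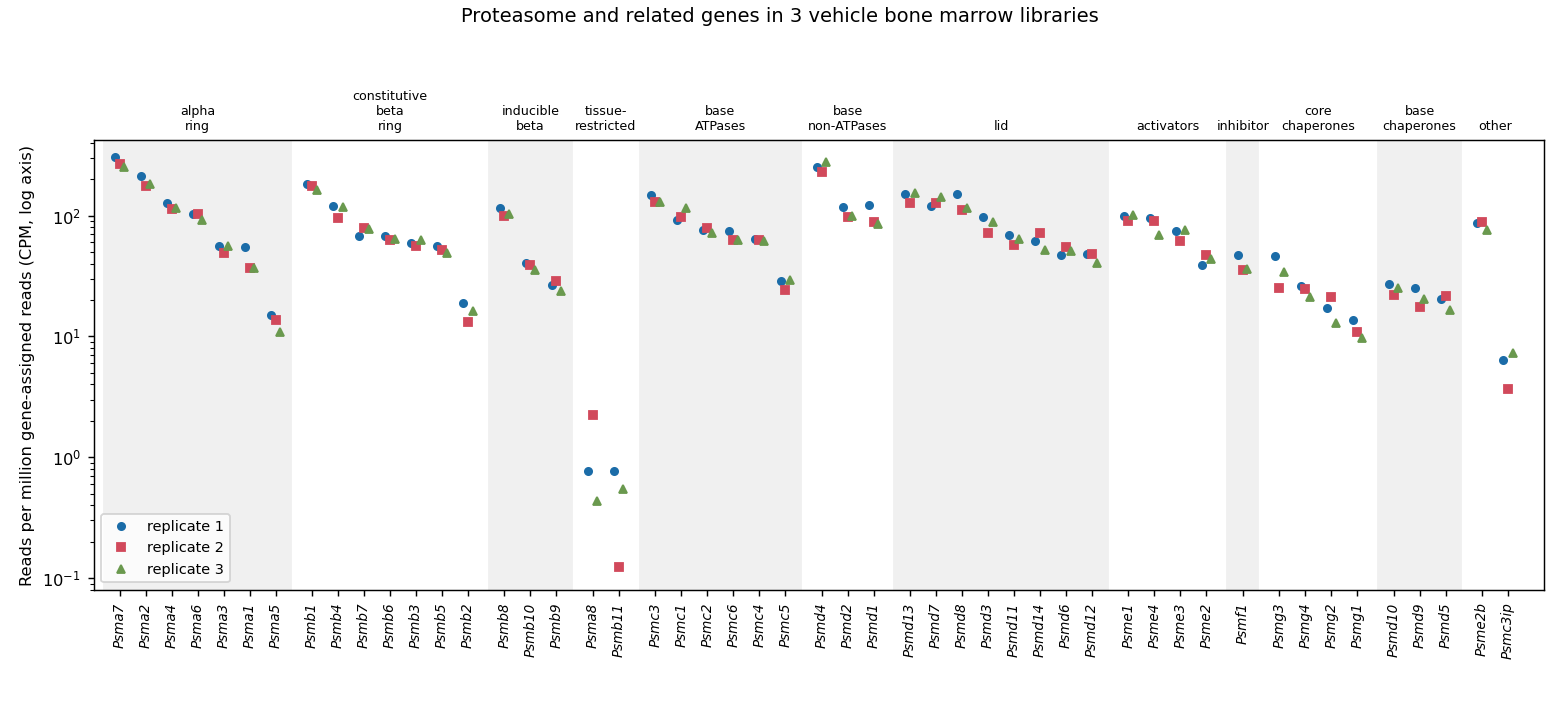
Levels of the 50 genes in CPM on a log axis, in the order of their role groups, with 1 point per library. Within a gene the libraries lie close together compared with the range between genes, from 0.478 CPM for Psmb11 to 276 CPM for Psma7.

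Of the activators, Psme1, Psme3 and Psme4 stood at similar levels, and the level of Psme2 depended on how reads of its copy were assigned. Psme1 and Psme2 encode the alpha and beta chains of the interferon-inducible activator ring and lie 5911 bases apart on chromosome 14. Psme1 had 99.5, 91.1 and 101 CPM, and Psme2 39.3, 47.0 and 43.7 CPM, below Psme1 in every library. For Psme1, 15.7% of end windows are shared with Gm7776 and Gm46496, and its transcript end overlaps the antisense gene Emc9. Psme3, the nuclear activator, had 74.7, 62.2 and 76.2 CPM, and Psme4, a large activator linked to histone turnover, 95.2, 91.1 and 69.1 CPM. Psmf1, which encodes the inhibitor PI31, had 47.3, 35.8 and 36.3 CPM. Psme2b (chromosome 11, 48945354 to 48946190) had 87.1, 88.5 and 75.8 CPM, above Psme2 in every library, with a log2 ratio of 0.95 ± 0.18 (SD, n = 3). Summed, Psme2 and Psme2b had 126, 135 and 119.5 CPM, which turned the order, with Psme1 to the sum at a log2 ratio of -0.39 ± 0.17 (SD, n = 3).

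The transcripts of Psme2 and Psme2b are shown because the last 220 bases of the Psme2 transcript hold no difference from Psme2b, in libraries that read from that end. Over 763 aligned bases they were 98.3% identical, with 13 substitutions, 9 of them in the Psme2 coding sequence. The last 2 were C495T and C519T, with the Psme2 base first and positions counted from 1 at the start of the Psme2 coding sequence. Coding bases 480 to 559 from GENCODE transcripts on GRCm38 follow, with the differing bases in capitals.
Psme2: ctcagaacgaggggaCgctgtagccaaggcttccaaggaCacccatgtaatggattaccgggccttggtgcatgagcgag
Psme2b: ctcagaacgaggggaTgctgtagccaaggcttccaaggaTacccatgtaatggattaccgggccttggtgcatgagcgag
From there to the end the copies match, and the last 90 coding bases before the stop codon are the same in both.
Psme2 and Psme2b, bases 604 to 693: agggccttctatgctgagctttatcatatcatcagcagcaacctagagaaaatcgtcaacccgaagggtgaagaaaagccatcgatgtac
Of the 50-base windows in the last 300 bases, 58.8% for Psme2 occur in Psme2b or Gm7928, and 68.5% for Psme2b occur in Psme2. No label states the read length or how reads with several matches were handled, so the split between the entries is uncertain, and the levels of neither gene can be read on their own.

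**Figure D3:**
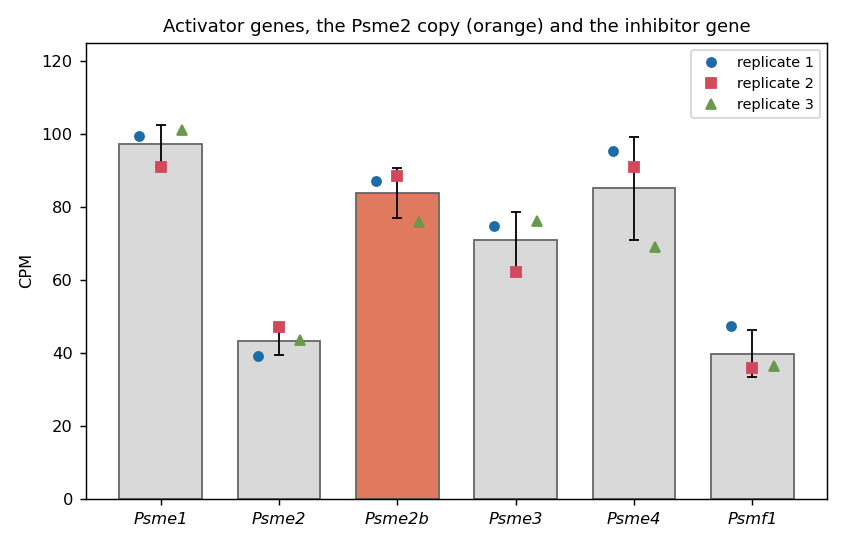
Levels of the activator genes, the Psme2 copy Psme2b (orange) and the inhibitor gene Psmf1 in CPM; bars are means, error bars SD and points the 3 libraries. Psme2b stands above Psme2 in each library.

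The assembly chaperones were among the lower members. Of the core chaperones, Psmg3 had 46.0, 25.4 and 34.1 CPM, Psmg4 26.3, 24.7 and 21.0 CPM, Psmg2 17.1, 21.1 and 13.02 CPM and Psmg1 13.6, 11.0 and 9.63 CPM. Psmg1 and Psmg2 encode partners of 1 dimer, as do Psmg3 and Psmg4. The base chaperones Psmd10 (also known as gankyrin), Psmd9 and Psmd5 had means of 24.8 ± 2.72, 21.1 ± 3.998 and 19.5 ± 2.54 CPM (SD, n = 3). Pomp, the maturation factor of the core, which falls outside the symbol rule, was far higher at 258, 209 and 209 CPM.

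Psma8, known from testis, had 7, 18 and 4 reads (0.763, 2.22 and 0.438 CPM), and Psmb11, known from thymic epithelium, had 7, 1 and 5 reads (0.763, 0.123 and 0.547 CPM). Both were under the minimum for a test, and Psmb11 in replicate 2 was below what a count of 0 allows. Psmc3ip had 59, 30 and 66 reads, and its transcript end overlaps the antisense gene Mlx.

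Between the 3 libraries, the share of members that differed, set against that of all entries, depended on scaling and level. It was slightly higher on library totals, and lower with trimmed-mean scaling or at a mean of at least 20 CPM. It was also lower without replicate 1, and higher without replicate 2 or 3. Each library was compared with the other 2 by a two-sided exact binomial test, the lowest p of each entry was taken times 3 and Benjamini-Hochberg adjusted over all 11833 entries tested. This called 56.5% of all entries and 29 of the 48 tested members (60.4%) at 0.05. This test sets the spread against counting noise only. On library totals the median log2 shift of replicate 1 was 0.14, and it was 0.01 with trimmed-mean (TMM) scaling, which called 51.8% of all entries and 22 members (45.8%). Both scalings called 18 members (37.5%), against 45.6% of all entries. At a mean of at least 20 CPM, totals called 64.3% of members against 70.6% of entries, and TMM scaling 47.6% against 64.2%. Without replicate 1 the test on library totals called 13 members (27.1%), against 34.8% of entries. Without replicate 2 it called 22 (45.8%), against 39% of entries, and without replicate 3 it called 24 (50%), against 38.5%. These shares were taken with no minimum CPM. The other settings called 22 to 30 members. Median-of-ratios scaling called 45.8% of members against 51.8% of entries, and the authors' scaling 47.9% against 51.9%. Without Rn45s and globin entries in the totals it was 47.9% against 52.8%. With a minimum of 10 reads it was 60% against 54%, with 100 reads 60.4% against 60.6%, and by a chi-square test 62.5% against 58.9%. Of the 29, 3 were also called without any 1 library: Psmg3, Psmd14 and Psmd4, which were named after their calls were seen. The share of all entries called in that way was not computed.

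The spread was small in size. The median coefficient of variation (CV) was 9.51% over the 42 tested members with a mean of at least 20 CPM, against 12.05% over the 5407 entries tested at that level, and with TMM scaling 8.95% against 11.0%. These members had a median level of 72.9 CPM against 51.3 CPM for those entries, so the sets were not matched by level. A range of more than 1.5-fold between libraries was seen for 4 of the 48 tested members (Psmc3ip, Psmg3, Psmg2 and Psma1), 8.33% against 38.5% of all entries tested, many of them lower in level. At a mean of at least 20 CPM it was 2 of 42 (4.76%) against 14.4%. In bulk samples such a difference between libraries cannot tell fewer cells of a type from less RNA per cell.

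**Figure D4:**
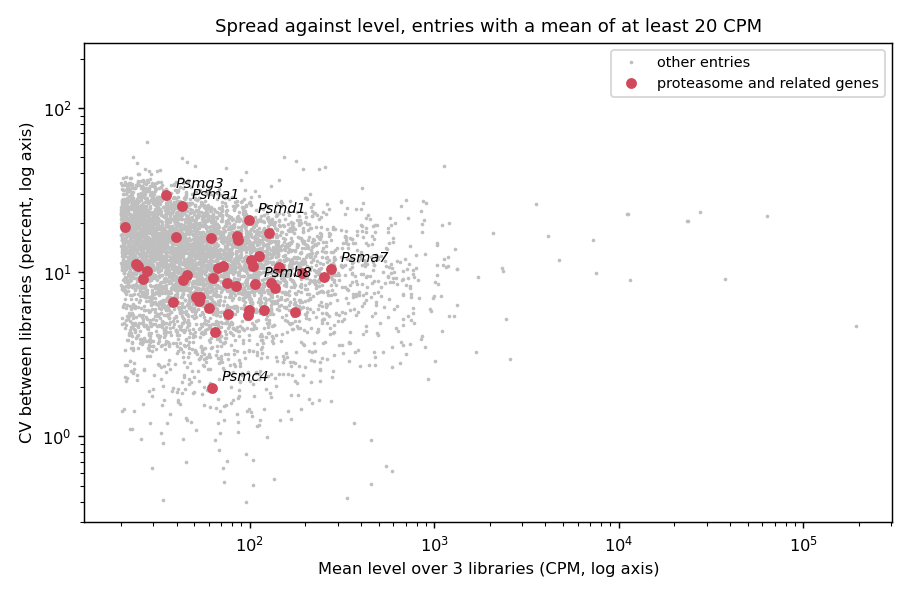
CV between the 3 libraries in percent against mean level in CPM, both on log axes, for entries with a mean of at least 20 CPM. The members (red) have a median CV of 9.51%, with Psmg3 highest at 29.4% and Psmc4 lowest at 1.96%.

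Among members with a mean of at least 20 CPM, the CV was largest for Psmg3 (29.4%), Psma1 (25.4%), Psmd1 (20.7%), Psmd9 (19.0%) and Psmd8 (17.4%). Each of the 5 was highest in replicate 1 on library totals and with TMM scaling. They were ranked on library totals, where 64.3% of members and 54.7% of entries at that level were highest in replicate 1. With TMM scaling the ranking changed. Psmc1 (17.1%) and Psmd14 (16.2%), highest in replicates 3 and 2, then stood above Psmd1 (14.5%), Psmd9 (14.2%) and Psmd8 (11.7%). Psma1, an alpha subunit, had 55.5, 36.6 and 36.7 CPM (adjusted p = 2.48e-10 in the exact binomial test, 3.82e-06 with TMM scaling), so replicates 2 and 3 were alike, and without replicate 1 the adjusted p was 1. Psmg3 was called without any 1 library, with adjusted p values from 2.64e-11 to 0.00465 in the exact binomial test. Psmd1 and Psmd8, the latter a lid subunit at 151, 111 and 116 CPM, were not called without replicate 1 (exact binomial adjusted p = 0.462 and 0.516). For Psmd1, 72.5% of end windows are shared with Gm21972. Psmd9 was not called with TMM scaling (0.0773), nor without replicate 1 (0.314) or 2 (0.0602). The CV was smallest for the ATPase gene Psmc4, at 63.7, 62.9 and 61.3 CPM (1.96%), for Psmb6 (4.31%) and for Psme1 (5.52%). With TMM scaling these were 4.17%, 2.89% and 7.61%, and Psme1 was then called (exact binomial adjusted p = 0.0141).

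Members moved in different directions between libraries. With TMM scaling, 12, 22 and 14 of the 48 tested members were lowest in replicates 1, 2 and 3 (25.0%, 45.8% and 29.2%, against 33.2%, 34.4% and 32.4% of all entries tested), and 15, 15 and 18 were highest there. The ATPase gene Psmc1 had 91.6, 97.7 and 115 CPM and the lid gene Psmd7 120, 128 and 142 CPM, both lowest in replicate 1 and highest in replicate 3 on both scales. Psmd14 (61.4, 71.4 and 51.7 CPM) and Psmg2 were instead highest in replicate 2 and lowest in replicate 3 on both scales. The lid had 7 of 8 members called on library totals and 6 with TMM scaling, the constitutive core 7 and 5 of 14, the activators 2 and 4 of 4 and the inducible subunits 1 and 0 of 3. Over all entries the shares were 56.5% and 51.8%, or 70.6% and 64.2% at a mean of at least 20 CPM, and no difference between role groups was tested. The 1 was Psmb8 (exact binomial adjusted p = 0.00414, 0.3002 with TMM scaling and 0.487 without replicate 1). Together the 50 genes held 0.399%, 0.357% and 0.365% of reads, and with TMM scaling 0.373%, 0.364% and 0.382%, so the higher total of replicate 1 was not seen on that scale.

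**Figure D5:**
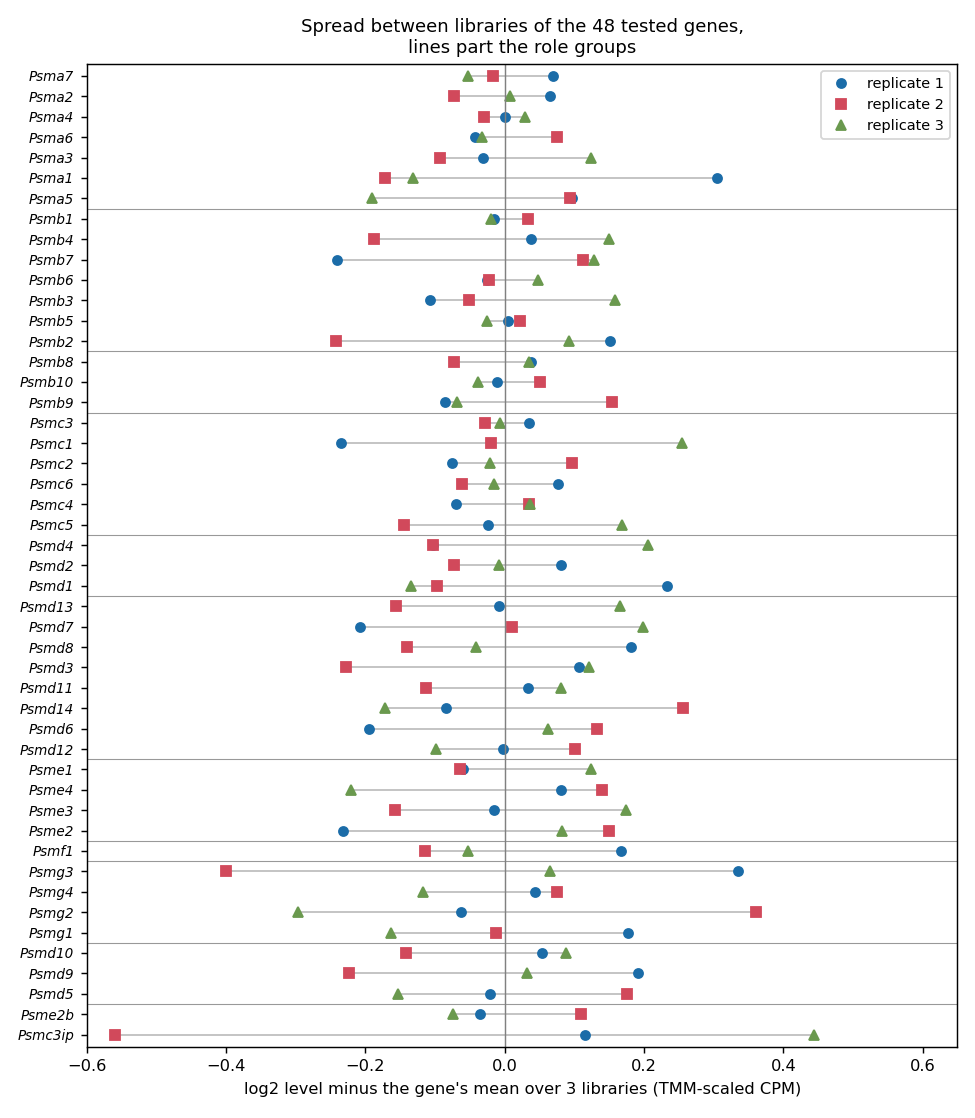
Log2 level of each tested member minus its mean over the 3 libraries, with TMM scaling; points are libraries and horizontal lines part the role groups. Psmc3ip, Psmg3 and Psmg2 spread most, and no library is highest throughout.

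Cell type markers moved between the same libraries. The 9 neutrophil markers held 8.81%, 6.84% and 9.05% of reads in replicates 1, 2 and 3 and the 6 erythroid markers 6.65%, 9.88% and 9.997%, while the 5 monocyte markers held 0.114%, 0.109% and 0.128%. On library totals the stromal list had the largest ratio of highest to lowest library, with sums of 270, 224 and 178 CPM. The T and NK list summed to 68.8, 55.0 and 74.9 CPM. The dendritic list, the steadiest on library totals, summed to 560, 587 and 576 CPM. No marker of the 9 lists, which also cover B, T and NK, dendritic, megakaryocyte, stromal and muscle cells, was at 0 in all 3 libraries, and the muscle markers summed to 5.25 to 6.65 CPM. Their part in the spread of the proteasome genes was not tested.

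Of the 44 pathway genes outside the symbol rule, 43 were measured and 42 tested, and 24 were called on library totals and 30 with TMM scaling, against 56.5% and 51.8% of all entries. Among further subunits and assembly factors, Adrm1, a ubiquitin receptor of the base, had 40.8, 43.2 and 44.5 CPM and was not called on library totals (exact binomial adjusted p = 0.841) but was with TMM scaling (0.0373), and Shfm1, the small lid subunit, had 176, 168 and 142 CPM. Of the 4 genes that control proteasome transcription, none was called on library totals by the exact binomial test and 2 were with TMM scaling. Nfe2l1, the factor that restores proteasome genes when activity drops, had 32.7, 37.5 and 36.2 CPM. Ubb, a polyubiquitin gene, was listed with only 4, 13 and 11 reads and was not tested. Of the 10 genes of class I presentation, 7 were called on library totals and 7 with TMM scaling, against 56.5% and 51.8% of all entries. At a mean of at least 20 CPM the shares of entries were 70.6% and 64.2%, but some genes of the list, such as Tap2, were below that level. Tap1, which shares its locus with Psmb8 and Psmb9, had 57.9, 56.0 and 54.9 CPM, between those 2 genes in every library, and Tap2 had 6.65, 4.69 and 4.49 CPM.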

How the data were processed

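Gene expression was measured in 3 vehicle bone marrow libraries made from 500 ng of total RNA with a Lexogen QuantSeq kit, per the labels' protocols. Per the submitters' processing notes, Bowtie2, bedtools and mm10 were used; no source here gives versions, annotation, strand setting or normalization. The authors deposited log2 values, read from the values as log2(x + 1) of reads per 1000000 of a library size 1.12, 1.03 and 1.01 times the reads listed. Since 100% of values were whole multiples of 1 read within 1e-06, whole reads were recovered and used as counts for the exact tests, where the design had assumed deposited read counts. Scaling, tests and figures used Python 3.11.15, scipy 1.17.1 and pandas 2.3.3, with TMM factors computed in Python (30% of ratios and 5% of intensities trimmed). In place of a count model, which needs groups, each library was tested against the other 2. The test was checked on simulated counts of the 3 libraries with counting noise only, where it called 42% of 50 genes changed 1.2-fold, 84% at 1.5-fold, 100% at a factor of 2 or 3 and 0.0516% of 11628 unchanged entries. The changed genes were drawn only from entries with many more reads than the minimum for a test. Those shares therefore do not cover tested entries with few reads. No label names molecular identifiers, so intervals and floors are for counting error alone, and Rn45s (18.6 to 20.3% of reads) and globin entries (10.1 to 15.1%) stayed in the totals.

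The members, gene lists and tests were chosen with earlier results of these data known. Named are the catalytic, activator, inhibitor, chaperone and tissue-restricted genes, the highest and lowest of each role group, the 5 largest and 3 smallest CVs at a mean of at least 20 CPM, and matches outside the role groups. Others were chosen after their values were seen, as were the promoter motifs. Gene positions, transcripts and transcript-end windows (50 bases within the last 300) are from GENCODE M21 on GRCm38, the assembly called mm10, in which all 50 symbols matched; start-site windows are from RefSeq. Paaf1 was not analysed here.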

Additional observations from a re-analysis of the deposited data

How the results depend on the processing

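No paired analysis was possible because only 1 group, of 3 libraries, was analysed. The 3 pair ratios kept their sign with a pseudocount of 1 CPM and without each library. Neither change could turn a sign, since each ratio had the same sign in all 3 libraries and adding 1 CPM to both genes keeps their order. The part of the Psmb5 end windows shared with Gm3375 in its ratio was not tested. The count of members that differed between libraries was 29 on library totals, 22 with TMM and with median-of-ratios scaling, 23 with the authors' scaling and without Rn45s and globin entries in the totals, 30 with a chi-square test and from 13 to 24 without each library in turn; the lowest, without replicate 1, compares the other two libraries only. Of the 48 members tested, 18 (37.5%, against 44.0% of all entries) were called under each of the 5 scalings and 14 under none. The share of all entries called under none was not computed. The log2 ratio of inducible to constitutive catalytic genes was -0.42 as a mean of the pair ratios in place of -0.17 from sums. The core median minus the lid median turned to 0.12 with mean CPM and to 0.18 without members that share end windows, which were left out after seeing the data. Core minus base moved to -0.10 with mean CPM and turned to 0.35 without those members. Core minus activators turned to 0.38 with mean CPM, to 0.10 with Psme1 and Psme2 only and to 0.32 without those members, and moved to -0.40 with Psme2 and Psme2b summed, also an alternative added after seeing the data. The cause was not tested. The 50 genes held 0.373% of reads, or 0.554% without Rn45s and globin entries in the totals, as a smaller denominator gives. At these depths levels under about 0.4 CPM could not be told from 0.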

Other observations

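Irf1, an interferon-induced transcription factor of class I presentation genes, had 122, 88.1 and 57.5 CPM in replicates 1, 2 and 3, while Irf2, Irf8 and Irf9 had CVs of 2.86%, 3.23% and 2.99% on library totals. With TMM scaling Irf8 and Irf9 were called by the exact binomial test (adjusted p = 1.09e-05 and 0.0316). Psmb8, Psmb9 and Psmb10 had CVs of 8.42%, 9.06% and 6.62% over the same libraries, and of these Psmb8 was called on library totals (exact binomial adjusted p = 0.00414, 0.3002 with TMM scaling) and highest in replicate 1. On that scale 62.5% of tested members and 49.2% of all entries tested were highest in replicate 1. With TMM scaling Psmb8 had 108.5, 100.5 and 108.2 CPM. A link between Irf1 and these genes was not tested.

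Akirin2, needed for nuclear import of proteasomes, had 45.2, 62.2 and 43.6 CPM and was highest in replicate 2. Zfand2a, a proteasome-associated stress gene, had 11.8, 7.03 and 5.91 CPM.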
